A study of Mus musculus with 12 samples.

Results

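Fetal liver haematopoietic stem cells (HSC) were read one cell per well, and 454 of the 1020 cells kept in the whole series were of this kind. They were found as all wells of the 5 plates whose titles name fetal liver HSC, if they had 1000 or more detected genes and 3000 or more unique molecular identifiers (UMIs, each standing for 1 captured RNA molecule), and if transcripts encoded in mitochondria made up less than 20% of those UMIs. This left out 26 of 480 wells. The well just inside the limits had 1000 genes and 4400 UMIs, and the one just outside had 950 genes and 12146 UMIs. The mice belonged to a Cas9-based line built for lineage tracing, which all groups share. Nuclei were captured on beads and removed, and cytoplasmic polyadenylated RNA was made into scSTRT-seq libraries. Plates 1 to 3 carry the origin code LL653E1 and plates 4 and 5 the code LL653E6. The comparison groups were HSC of the aorta-gonad-mesonephros region (AGM, 143 cells, 2 plates of 1 code) and of bone marrow (423 cells, 5 plates of 2 codes). The labels give no age and no sort markers and do not say how many animals stand behind a code, so p-values measure the spread between plates or codes only.

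The fetal liver is the organ in which stem cells that arose in the AGM lodge and multiply before blood formation moves to the bone marrow. Fetal liver stem cells are known for active cycling, for RNA-binding proteins of the Lin28 and Igf2bp families and for the imprinted RNA H19. A single-cell table shows more than a mean: a gene can be at a like level in every cell or be concentrated in a few, and genes of a shared process can rise and fall together from cell to cell.

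The 5 plates held 95, 96, 82, 92 and 89 cells and 28042112 UMIs in all, from 3384993 on plate 5 to 8140383 on plate 4. A cell had a median of 54303 UMIs (4400 to 268641) and 4117 detected genes (1000 to 6773). The 96 well barcodes recur on every plate, so cells are named by plate and barcode. Plate 5 stood apart in 2 measures. Its detected genes had a median of 2 UMIs, against 4 to 7 on the other plates. Of the genes at 30 or more CPM (UMIs of a gene scaled to a common plate total) on every other plate, 311 of 4557 (6.82%) were at least 4-fold lower on plate 5 than on each of them, against 0 to 4 genes for the other plates. Xist, the RNA of the inactive X chromosome, was found in 92 of 273 cells of plates 1 to 3 (63 of 95, 12 of 96 and 17 of 82) and in 1 of 181 cells of plates 4 and 5, and Y chromosome transcripts in 1 and 121 cells. Origin code, sex and plate therefore cannot be told apart in comparisons between the codes.

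The stem cell label was checked against genes that define other cells of the organ. Of 10 hepatocyte genes, 3 or more were found together in 4 cells, with a summed level of 10.7 to 35.7 CPM per plate. A single cell each had 3 or more of 8 megakaryocyte and of 10 endothelial genes. No cell had 3 of the 8 macrophage, 7 red cell, 8 granulocyte, 9 B or T cell, 8 stromal or 6 mast cell genes, and 5 of the mast cell genes were at 0 in all 454 cells. Summed levels per plate were 1.86 to 14.7 CPM for the macrophage and 1.65 to 4.79 CPM for the red cell genes, a set that holds no globin. The longer erythroid list, which holds the globins and Car2, summed to 1013 to 3089 CPM per plate, and Hbb-bt alone was at 1831 to 2122 CPM on plates 1 to 3, where it was found in every cell. Receptors of the stem cell list were found in unlike shares of cells. Procr was found in 91.4% of cells, Cd34 in 93.2%, Ly6a in 84.1% and Kit in 68.9%. Others were rarer: by plate Slamf1 was found in 6.10% to 32.3% of cells and Tek in 22.9% to 48.3%. Cd48 was found in 15.6% to 46.3% and Flt3 in 28.0% to 63.2%.

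The marker genes given for this population were Car2, Ltb, H19, Id3, Mzb1 and Igf2bp1, and all were present on every plate. Car2, which encodes the cytosolic carbonic anhydrase 2, was found in every cell, and its level was 883, 855, 944, 877 and 1118 CPM on plates 1 to 5 (935.5 ± 107, SD, n = 5 plates). Ltb, the membrane partner of lymphotoxin alpha, was at 440.4, 411, 378 and 440.5 CPM on plates 1 to 4 and at 102.2 CPM on plate 5. Plate 5 lay outside the range of the others for Ltb, while for Car2 it was the highest. H19, an imprinted long non-coding RNA, was at 101.5, 102.4, 126, 175 and 187 CPM (138 ± 40.4), so the plates of LL653E6 lay above those of LL653E1. Id3, an inhibitor of helix-loop-helix transcription factors, was at 130, 170, 71.2, 116 and 82.7 CPM (114 ± 39.4). Mzb1, an endoplasmic reticulum protein known from B cells and plasma cells, was at 79.6, 52.9, 74.1, 115 and 72.7 CPM (78.9 ± 22.7). Igf2bp1, an RNA-binding protein of the fetal programme, was at 66.6, 61.9, 59.6, 33.7 and 51.1 CPM (54.6 ± 13.0). The plates of LL653E1 lay above those of LL653E6 for Igf2bp1, and the plates of both codes overlapped for Id3 and Mzb1. The annotation of GRCm38, the build named for the files, places H19 at chr7:142575529-142578143 (minus strand), Igf2bp1 at chr11:95957163-96005940 (minus), Id3 at chr4:136143497-136145755 (plus), Ltb at chr17:35194439-35196320 (plus) and Car2 at chr3:14886273-14900770 (plus).

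**Figure D1:**
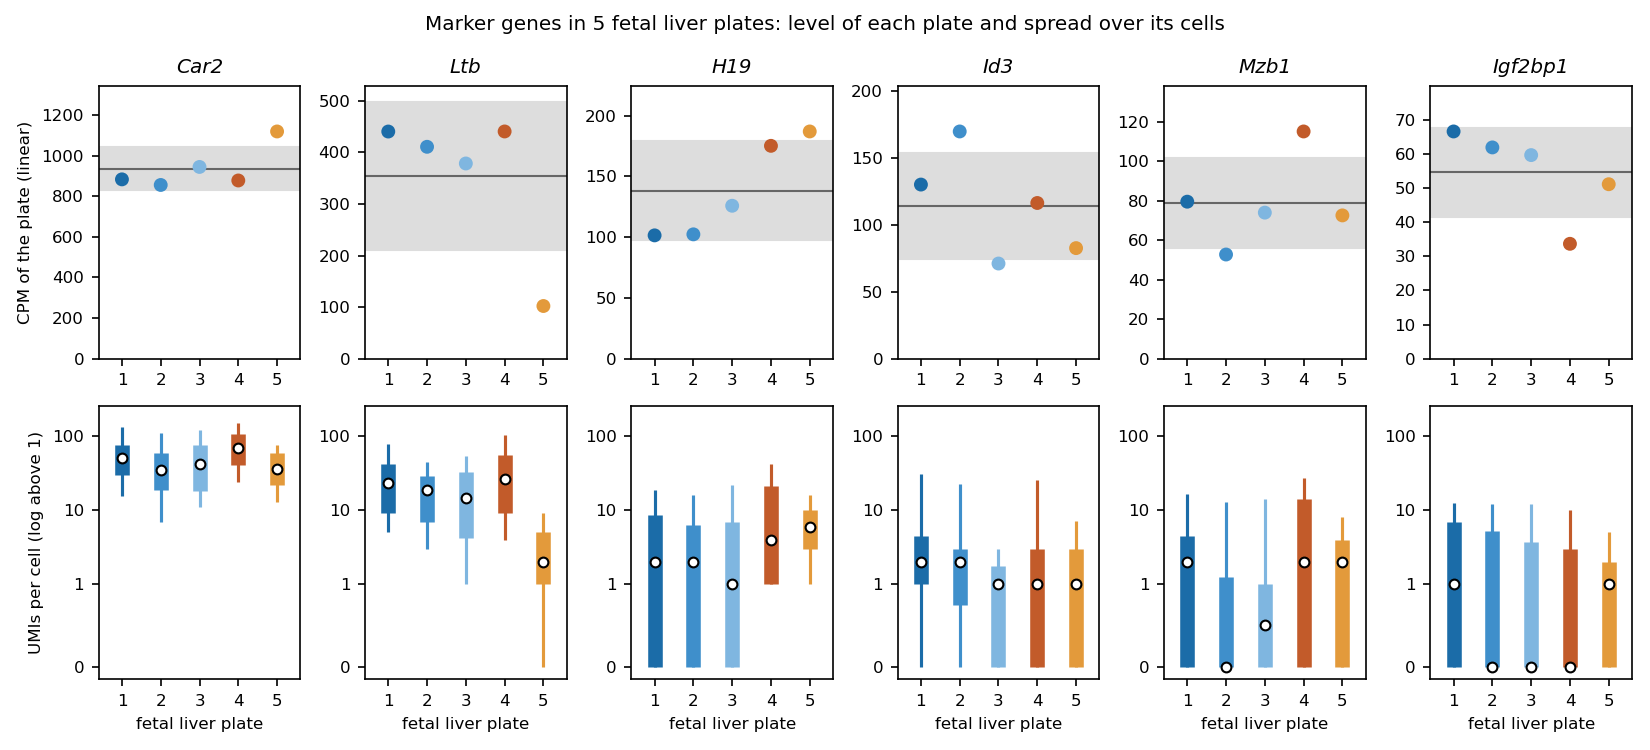
Marker genes on the 5 fetal liver plates. Upper row, CPM of each plate (points; line and band, mean ± SD of the 5 plates); lower row, UMIs per cell on an axis that is logarithmic above 1 (circle, median; thick bar, 25th to 75th percentile; thin bar, 10th to 90th). Car2 is above 0 in every cell, the medians of Id3, Mzb1 and Igf2bp1 lie at 0 to 2 UMIs, and Ltb is lowest on plate 5.

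The cells did not carry the markers evenly. The share of cells with a UMI was 100% for Car2, 95.6% for Ltb, 80.6% for H19, 68.7% for Id3, 61.0% for Mzb1 and 52.2% for Igf2bp1. After each cell was thinned to 20000 UMIs, which left out 35 shallower cells, these shares were 98.8%, 89.0%, 61.8%, 48.7%, 42.2% and 41.5%. All 6 markers were found together in 99 of 454 cells (21.8%, 24, 17, 13, 16 and 29 cells by plate) and in 22 of 419 thinned cells (5.25%). A median cell held 5 of the 6, or 4 after thinning. The plot of marker UMIs per cell shows how skewed the rarer ones were. Id3 had plate medians of 1 or 2 UMIs, 90th percentiles from 3 to 31 UMIs and a highest cell of 161 UMIs. Mzb1 reached 85 UMIs and Igf2bp1 38 UMIs in their highest cells, with plate medians of 0 to 2 and 0 to 1 UMIs. In bone marrow the share of cells with a UMI was 1.18% for H19, 0.946% for Id3, 0.473% for Igf2bp1 and 2.13% for Mzb1, at plate medians of 29964 to 92658 UMIs per cell. These shares do not give the background within a fetal liver plate, where single cells held many UMIs of these genes. Whether UMIs crossed between wells of a plate was not tested. In AGM the shares were 100% for H19, 99.3% for Igf2bp1, 92.3% for Id3 and 10.5% for Mzb1. AGM cells were deeper, at plate medians of 155534 and 165903.5 UMIs. Thinned to 20000 UMIs, the AGM shares were 100%, 97.2%, 56.0% and 2.13%. The Id3 share was then close to the 48.7% of thinned fetal liver cells. Without thinning, the Mzb1 shares differed between plates, from 1.05% to 29.2% on the 2 AGM plates and from 0% to 9.88% on the bone marrow plates.

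Genes of stem cell identity formed a graded series rather than a common level. Of 35 listed genes 22 were found in over 50% of cells, and a thinned cell held a median of 17 (7 to 26). The transcription factors Lmo2 (481, 379, 418, 537 and 83.6 CPM), Mycn (285, 372, 260, 343 and 121 CPM) and Lyl1 (275, 291, 264, 285 and 75.9 CPM) were each lowest on plate 5. Among surface proteins, Cd34 was at 246 ± 37.2 CPM and Procr, the endothelial protein C receptor, at 227 ± 28.2 CPM (SD, n = 5 plates). Hlf, a leucine zipper factor of stem cells, was at 144 ± 28.2 CPM in 81.3% of cells, Mecom at 119 ± 27.5 CPM in 77.8% and Meis1 at 109 ± 15.3 CPM in 78.9%. The SLAM family receptors used to sort stem cells were low: Slamf1 was at 14.6 ± 6.13 CPM in 21.1% of cells, and Cd48 at 21.8 ± 6.54 CPM in 29.3%. Itga2b, the CD41 integrin of platelets and early stem cells, was found in 7.05% of cells, and Hoxb4 in 3.96%.

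The most abundant genes were found in nearly every cell. Outside ribosomal protein and mitochondrial genes, the most UMIs came from the elongation factor Eef1a1 (3603 ± 517 CPM), the actin Actb (3406 ± 583), Fau (2767), Tmsb4x (2744), B2m (2603 ± 250) and the interferon-inducible Ifitm1 (2518 ± 446). Ppia, Tmsb10, Hsp90ab1, Ftl1, Gas5, Fth1, Mif, Malat1 and Npm1 completed the first 15, from 2387 to 1936 CPM. UMI tables hold no gene lengths, so this order is one of captured molecules. Ribosomal protein genes took 20.6% to 27.4% of UMIs per plate. In thinned cells 1411 genes were found in at least 50% of the cells of every plate and 376 in at least 90%, while 5961 of 17125 genes with a UMI were found in under 5% of the cells of every plate.

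The genes that were low on plate 5 were of many kinds, and 4 are given as examples. Eif3f, a subunit of initiation factor 3, was at 802 to 1129 CPM on plates 1 to 4 and 113 CPM on plate 5. Dek, a chromatin protein, was at 434 to 610 CPM on plates 1 to 4 and 25.7 CPM on plate 5. Hhex, a homeobox factor of blood and liver, was at 213 to 338 and 46.1 CPM, and Srm, spermidine synthase, at 282 to 296 and 4.14 CPM. These genes were chosen after their values were seen. Of the 311 genes 303 were annotated, and 11 genes were at least 4-fold higher on plate 5 than on each other plate. The plate also had the lowest UMI total and 14 of the 35 cells under 20000 UMIs, and the part of depth in these differences was not tested. Pf4, the platelet chemokine, was found in 75.3% of the cells of plate 5 and in 17.4% to 30.5% of those of the other plates, at 63.8 CPM against 26.5 to 38.0 CPM.

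**Figure D2:**
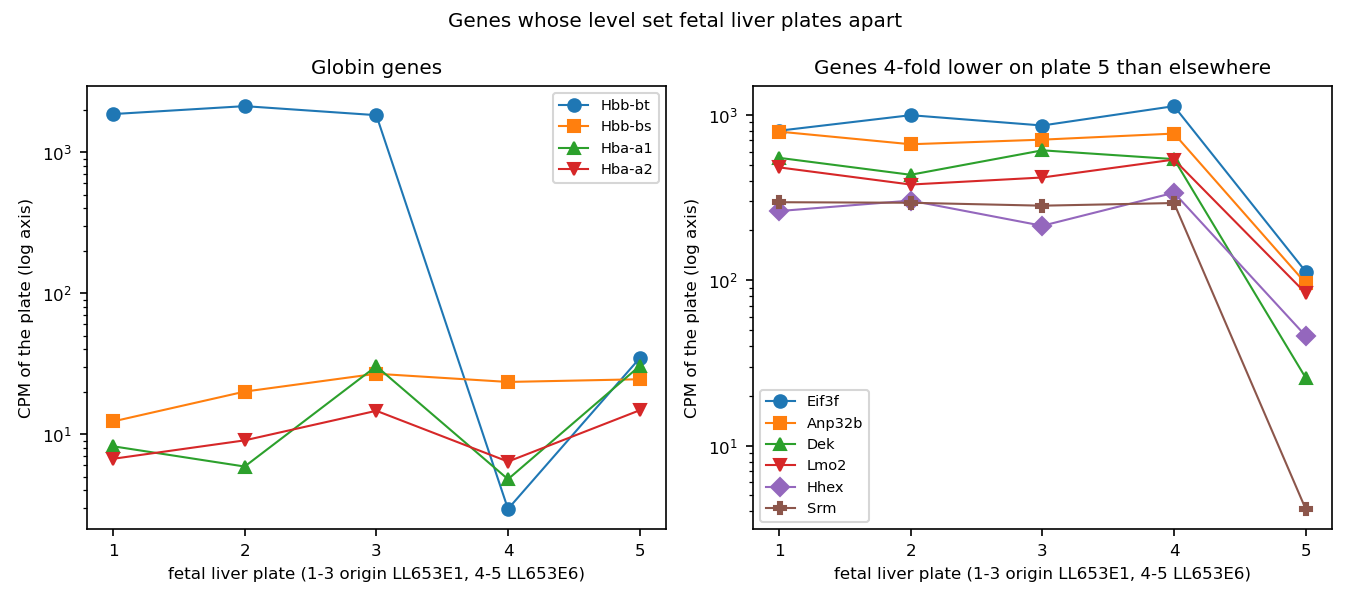
Genes whose level set fetal liver plates apart, as CPM of each plate on a log axis. Left, 4 globin genes: Hbb-bt is at 1831 to 2122 CPM on plates 1 to 3 and at 2.95 and 34.6 CPM on plates 4 and 5, while the other 3 stay between 4.79 and 30.4 CPM. Right, 6 of the genes that are at least 4-fold lower on plate 5.

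Between the origin codes, with plates as libraries, 5 of 11753 tested genes (0.0425%), 2 higher (0.0170%) and 3 lower (0.0255%) in LL653E6, passed edgeR's quasi-likelihood test at a Benjamini-Hochberg adjusted p under 0.05. The count at an unadjusted p under 0.05 was 455. Lower were mt-Nd3 and mt-Nd4, subunits of respiratory complex I encoded in mitochondria, and Xist. The plate values of mt-Nd3 were 134, 167 and 162 CPM in LL653E1 and 7.62 and 8.27 CPM in LL653E6 (log2 difference -4.25 ± 0.34, adjusted p = 0.00577), and the groups did not overlap. Those of mt-Nd4 were 319, 433 and 641 CPM against 57.1 and 49.3 CPM (-3.09 ± 0.35, adjusted p = 0.034). Xist had 820 UMIs against 1 (adjusted p = 0.043). The 2 higher were the Y-linked Eif2s3y (0 against 609 UMIs, adjusted p = 0.0217, at least 289-fold higher against a floor of 3 UMIs over the plates of LL653E1) and the predicted gene Gm44089 (2.55 against 109 CPM, adjusted p = 0.0348). Of 12 tested mitochondrial genes 2 passed, and the median log2 difference of the list was -2.47, beside -0.02 over all genes. The call depended on plates: without plate 1, 2 or 3 edgeR's test called 0 genes (333, 371 and 362 at an unadjusted p under 0.05), without plate 4 it called 769 and without plate 5 it called 14. DESeq2 called 39 genes on all plates.

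A globin and 1 Trim gene close to it on chromosome 7, Trim12a, separated the codes without passing the test. Hbb-bt, an adult beta globin, was at 1864, 2122 and 1831 CPM on plates 1 to 3 and at 2.95 and 34.6 CPM on plates 4 and 5, and the groups did not overlap (log2 difference -6.63 ± 0.97, adjusted p = 0.0838). It was found in every cell of plates 1 to 3, with medians of 122, 92.5 and 84.5 UMIs, in 4.35% of the cells of plate 4 and in 51.7% of those of plate 5. The other adult beta globin, Hbb-bs, was at 12.3 to 26.8 CPM on the 5 plates, and Hba-a1 and Hba-a2 at 4.79 to 30.4 CPM. A Hbb-bt signal therefore ran through plates 1 to 3 without the other globins at a like level, as the plot of globin genes by plate shows. Hbb-bt lies at chr7:103812524-103813996 (minus strand, GRCm38). Trim12a, a tripartite motif gene at chr7:104299894-104315466, had 310 UMIs in LL653E1 and 1 in LL653E6 (log2 difference -7.51 ± 1.08, adjusted p = 0.0835). Of the 12 tested genes from Hbb-bt to Trim30d, 9 were lower in LL653E6 by over 1 on the log2 scale, with a median of -2.37. Within 3 Mb on either side it was 4 of 39 genes with a median of 0.17, and over all tested genes 10.6%. Trim30a (902 and 622 UMIs, log2 difference -0.10), which lies in the stretch, was near even. This stretch was chosen after its values were seen, and near-identical Trim genes may share reads.

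Cell-to-cell spread was measured in 6572 genes found in at least 10% of the cells of every plate. It is the squared coefficient of variation of depth-scaled counts over that of genes of like mean on the same plate, on the log2 scale, so that 0 is the usual spread. A gene above 1 on every plate had a squared coefficient of variation at least 2 times that of its peers. There were 9 such genes, 1 of them predicted. Hist1h2bc (2.45 ± 0.74, SD, n = 5 plates) and Hist1h2ae (2.05 ± 0.45) encode core histones, Pclaf (1.92 ± 0.15) a partner of the replication clamp and Ccnb2 (1.36 ± 0.33) cyclin B2. The others were the complex I gene mt-Nd1 (2.06 ± 0.77), the nuclear RNA Malat1 (1.79 ± 0.61), the helix-loop-helix inhibitor Id2 (1.76 ± 0.43) and the platelet chemokine Pf4 (1.23 ± 0.14). Nuclei had been removed, and how much nuclear RNA stayed in each well, which bears on Malat1 and Xist, was not tested. The spread took different forms in single cells. Pclaf was found in 83.9% of cells, yet its plate medians were 1 to 5 UMIs, its 90th percentiles 51.4 to 96.9 UMIs and its highest cell 250 UMIs. Id2 was found in 21.4% of cells, and 1 cell held 9.62% of all its UMIs. On thinned counts 5 genes were above 1 on every plate, and leaving out single plates gave 10 to 17, with 17 without plate 4, 16 without plate 5 and 15 without plate 2.

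**Figure D3:**
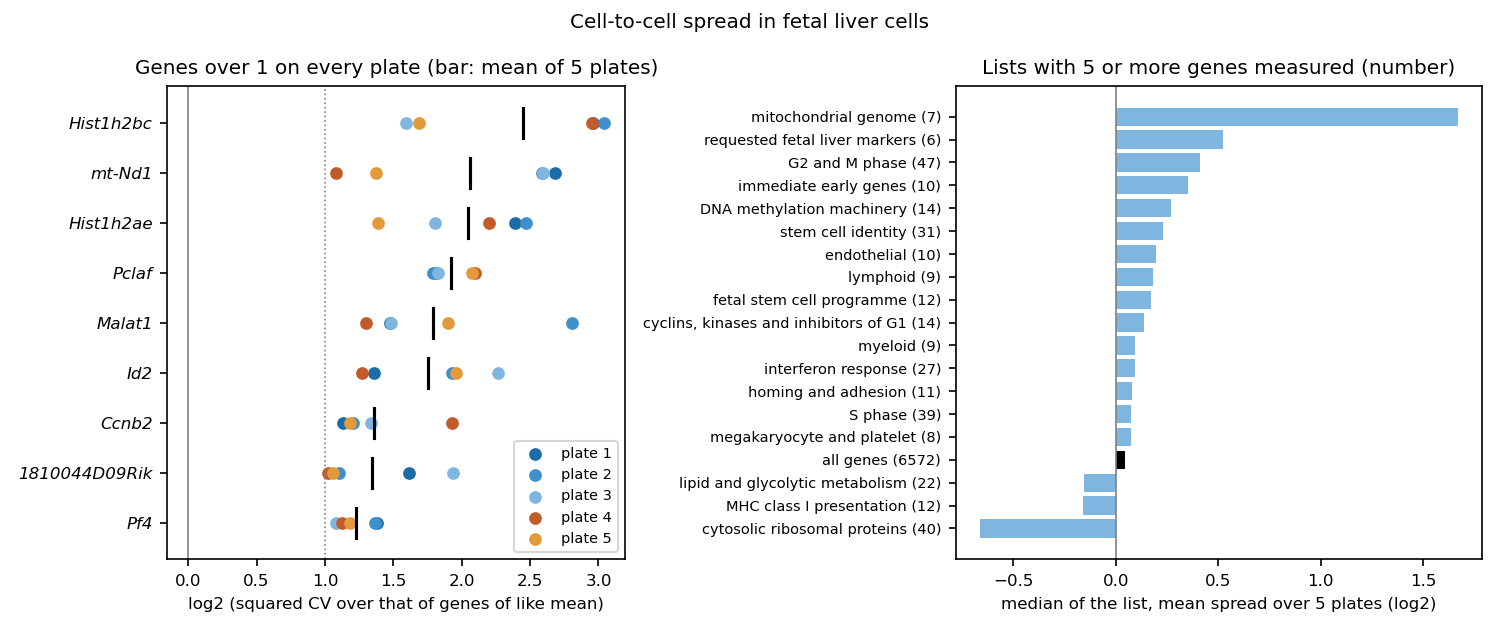
Cell-to-cell spread in fetal liver cells. Left, the 9 genes above 1 on every plate (points, plates; black bar, mean); right, median spread of gene lists with 5 or more genes measured, with all genes in black. Mitochondrial genes lie highest at 1.67, G2 and M phase genes at 0.41 and ribosomal protein genes lowest at -0.66.

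By list, the median spread was 0.41 for 47 measured G2 and M phase genes and 0.07 for 39 S phase genes, beside 0.05 over all genes. Of the G2 and M phase genes 42.6% lay above 0.5, against 14.6% of all genes. The 31 measured stem cell genes had a median of 0.23, from Gata2 at -0.64 to Tek at 0.79. Among the markers Id3 was highest at 1.68 and Igf2bp1 lowest at 0.01. The medians of the 12 measured genes of class I antigen presentation (-0.16) and of the 40 ribosomal protein genes (-0.66) lay below the trend, although H2-K1 (0.25) and Rps27 (0.20) lay above it. The same gene's spread was only partly shared between plates, with Spearman correlations across genes, which are not replicates, of 0.20 to 0.41.

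The most even genes are given next. The smallest means belonged to Gadl1 (-2.18 ± 0.81), Tulp4 (-1.99 ± 0.99), Fam221b (-1.83 ± 0.77), Eno1b, Coro1b, Psme2b, Il2, Phpt1, Psmb7 and Hmga1b (-1.59 ± 0.75). Plate 5 lay nearest to 0 for 9 of the 10, from -0.96 to 0.07, and for Hmga1b it was plate 1 (-1.01). Several are not known as stem cell genes: Il2 encodes a T cell growth factor, and a UMI of it was found in 37.0% of cells with at most 9 UMIs. In the annotation Gadl1, Tulp4, Fam221b and Psmb7 hold a processed pseudogene within their bounds, and Psme2b and Eno1b are copies of Psme2 and Eno1. Over the 100 named protein-coding genes of smallest spread a pseudogene inside was no more than background, at 8 genes beside 7.37% of all protein-coding genes measured. Of the 100 genes of smallest spread among all measured, 31 were predicted, ribosomal protein, mitochondrial or pseudogenes, or had no protein-coding or long non-coding annotation. The share over all measured genes was 5.43%, and these kinds were not counted apart. Reads of predicted genes, pseudogenes and copies may be shared with near-identical genes, so their levels are uncertain.

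Gene pairs were read as Pearson correlations over the cells of each plate, in 4761 genes found in at least 20% of the cells of every plate. Of 11331180 pairs 2236 had r above 0.3 on every plate, and in 1199 of them both genes were ribosomal protein genes. The 20 pairs with the highest lowest-plate value were of ribosomal protein genes, 1 of them with a predicted gene; among annotated genes Rpl32 with Rps19 led (lowest plate 0.88, median 0.90). The 5 most negative pairs had a ribosomal protein gene on 1 side: Rps26, Rpl32, Rpl34 and Rps27 each ran against Tuba1b, an alpha tubulin, at medians of -0.54 to -0.51, and Rps27 against Hnrnpf at -0.50. With the UMI total and the number of genes per cell held constant, a partial correlation, 1256 pairs were above 0.3 on every plate. In 933 of these both genes were ribosomal protein genes. Rps26 with Tuba1b had a median partial r of -0.15. The part of library depth in these pairs was not tested beyond this.

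Among annotated genes other than ribosomal protein and mitochondrial genes, 224 pairs had a partial r above 0.3 on every plate, a restriction chosen after the pairs were seen. At least 1 gene of the S, G2 and M phase lists was in 191 of them, and both genes were in 89. These lists hold 1.60% of the 4503 genes, which is a share of genes and not of pairs. The genes with the most partners were Nusap1 (29), which bundles spindle microtubules, Birc5 (24), the survivin subunit of the chromosomal passenger complex, Ckap2l (24), a spindle protein, and Ccnb2 (19). Cdca3, Pclaf and Top2a had 17 partners each, Cdca8, a partner of Birc5 in the passenger complex, 16, and Cenpf, a kinetochore protein, 15. Birc5 with Nusap1 had a median partial r of 0.62 (0.56 to 0.77 by plate) and Cdc20 with Pttg1, the activator of the anaphase-promoting complex and its substrate securin, 0.53 (0.46 to 0.60). Hist1h2ae and Hist1h2ap, histone genes of the same chromosome, had 0.60 (0.49 to 0.75).

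The promoters of the genes with many partners were searched for CCAAT, the letters read by the factor NF-Y, on both strands (CCAAT or ATTGG) within 250 bases before the start of transcription in RefSeq (GRCm38.p6). The motif was chosen after the pairs were seen. Of 26 genes with 8 or more partners 19 were in the table, and 16 of the 19 (84.2%) held a match, against 37.0% of 5295 genes with a spread measured and 34.5% of all 27025 genes. At least 2 matches were held by 12 of the 19 (63.2%), against 14.7% and 10.5%. The letters were not in this window of Nusap1, Birc5 or Pttg1. A second pattern, TTTGAA on both strands, was in 7 of the 19 (36.8%), against 11.2% and 16.3%. Over the 16 genes with a match, the nearest one began 8 to 213 bases before the start. For 5 of these genes, picked by hand as examples, the 130 bases before the start are printed. They are given 5′ to 3′ on the gene's strand, with each match in capitals. Pclaf and Top2a, with 17 partners each and 2 and 6 matches, are not printed. The printed genes are Ckap2l (chr2:129297213-129297342, minus strand), Ccnb2 (chr9:70421555-70421684, minus), Cdca3 (chr6:124830046-124830175, plus), Cdca8 (chr4:124936918-124937047, minus) and Cenpf (chr1:189688087-189688216, minus).
Ckap2l: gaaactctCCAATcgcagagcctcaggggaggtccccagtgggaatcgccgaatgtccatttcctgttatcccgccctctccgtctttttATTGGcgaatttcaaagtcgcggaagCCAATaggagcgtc
Ccnb2: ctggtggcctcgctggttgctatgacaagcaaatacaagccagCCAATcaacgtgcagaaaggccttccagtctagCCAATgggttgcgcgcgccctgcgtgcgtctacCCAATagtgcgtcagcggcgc
Cdca3: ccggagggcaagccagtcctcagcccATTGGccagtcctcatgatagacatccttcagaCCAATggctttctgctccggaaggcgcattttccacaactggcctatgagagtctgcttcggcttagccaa
Cdca8: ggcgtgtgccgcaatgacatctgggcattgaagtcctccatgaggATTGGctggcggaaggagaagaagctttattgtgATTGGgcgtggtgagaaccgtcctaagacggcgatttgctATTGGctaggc
Cenpf: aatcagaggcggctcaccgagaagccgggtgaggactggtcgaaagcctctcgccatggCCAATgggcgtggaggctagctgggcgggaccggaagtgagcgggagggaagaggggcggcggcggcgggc
Ckap2l, Ccnb2 and Cdca8 hold 3 matches each in these bases, Cdca3 holds 2 and Cenpf 1. The nearest match began 14 bases before the start in Ckap2l, 21 in Ccnb2 and 11 in Cdca8, and 71 in Cdca3 and Cenpf.

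Other tight pairs held a gene with a processed pseudogene inside it, or a copy. Of the first kind, Usp50, a ubiquitin protease gene, ran with Polr2l at a median partial r of 0.69, Fam221b with Serf2 at 0.72, Tulp4 with Fbl at 0.61, and of the second Psme2 with Psme2b at 0.58. Il2 ran with Ntan1 (0.61, 0.51 to 0.70 by plate), a gene on another chromosome, and the annotation lists no processed pseudogene within Il2. Whether reads were shared within these pairs was not tested.

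The most negative median partial r was that of Gas5 with Rrm2 (-0.37, -0.38 to -0.06 by plate), a growth-arrest RNA and a subunit of ribonucleotide reductase. Several of the next set the D-type cyclins of G1 against genes of mitosis. Ccnd2 with Cdca8 had a median of -0.37 (-0.43 to -0.20), Ccnd2 with Birc5 -0.34, Ccnd1 with Cdc20 -0.33 (-0.44 to -0.24) and Ccnd1 with Ccnb2 -0.30 (-0.51 to -0.26). Mycn, a Myc family factor, ran against Birc5 at -0.33 (-0.38 to -0.20). In all, 13 pairs of annotated genes lay below -0.2 on every plate. Ccnd1 and Ccnd2 ran together at 0.29 (0.18 to 0.35).

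**Figure D4:**
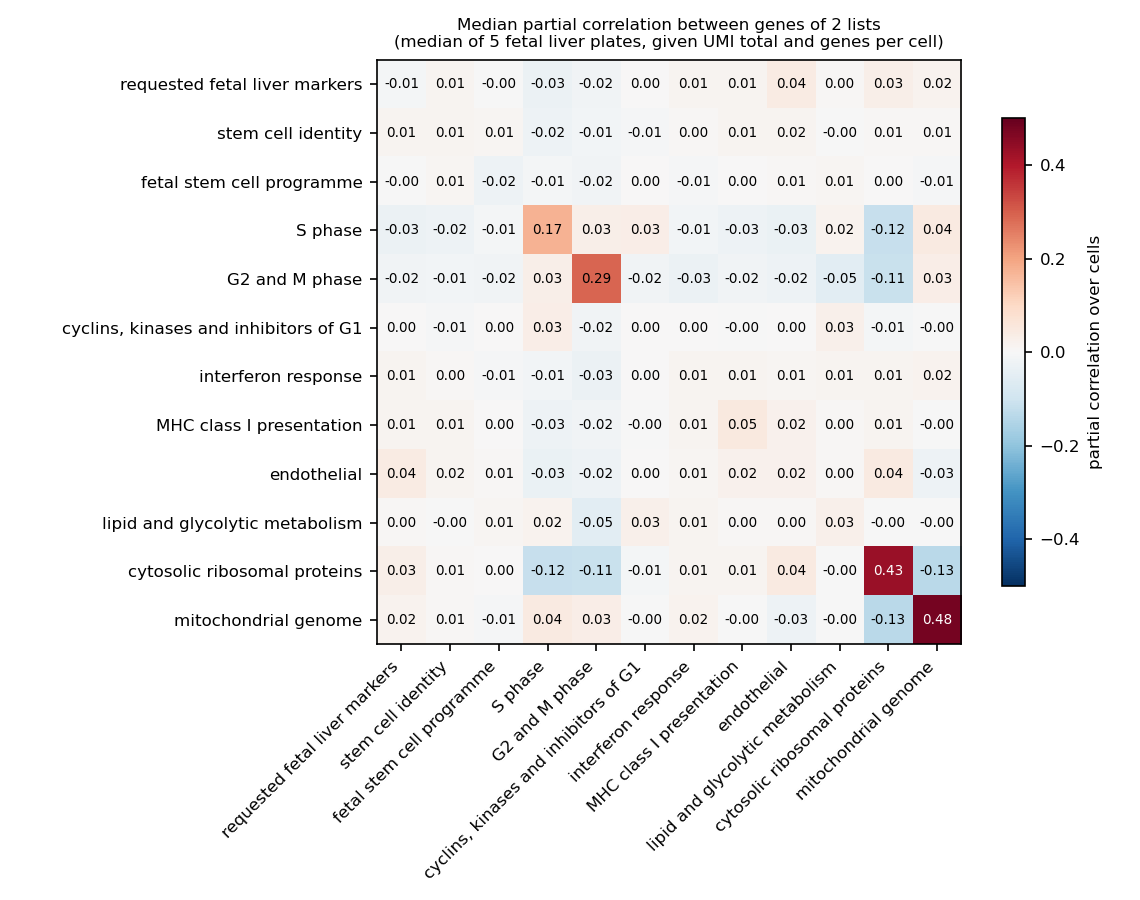
Median partial correlation over cells between genes of 2 lists, given UMI total and genes per cell (median of the 5 fetal liver plates; red, positive; blue, negative). The values within G2 and M phase (0.29), S phase (0.17), ribosomal protein (0.43) and mitochondrial genes (0.48) stand out from a field near 0, and ribosomal protein genes run slightly against S phase (-0.12) and mitochondrial genes (-0.13).

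Stem cell identity genes did not form a block of this kind. The median partial r within the list was 0.01 (-0.00 to 0.03 by plate), beside 0.00 over all pairs, while it was 0.29 (0.20 to 0.33) within the G2 and M phase list and 0.17 (0.10 to 0.20) within the S phase list, as the plot of list correlations shows. Single pairs were weak, and in these sparse counts they are descriptions only. Ly6a, the stem cell antigen Sca-1, with Procr had 0.25 (0.12 to 0.40), Car2 with the cytokine receptor Flt3 0.22 (0.11 to 0.24), and Procr with Flt3 -0.22 (-0.34 to 0.03). Id3 ran with its relative Id1 at 0.43 (0.07 to 0.57), and Mzb1 with Car2 at 0.17 (0.16 to 0.31). Ribosomal protein genes ran against S phase genes at -0.12 and against G2 and M phase genes at -0.11.

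Cycle genes were counted per cell after thinning to 20000 UMIs. A cell held a plate median of 12 to 21 of 42 S phase genes and 13 to 23 of 53 G2 and M phase genes. Single cells ran from 3 to 37 and from 4 to 49, with a wide range on each plate. Plate 5 had the highest medians (21 and 23) and no cell under 11 S phase genes, while cells of plates 1 to 4 went down to 3 or 4. It also had the most detected genes per thinned cell, at a median of 3628 against 2749 to 3167. In summed level it was lowest for S phase genes, at 3619.5 CPM against 3654 to 5133 CPM. For G2 and M phase genes it was at 6301 CPM, within the 5534 to 6984 CPM of the others. The part of gene detection in its higher counts was not tested. The numbers of both lists correlated over cells at 0.39 to 0.50 within plates.

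**Figure D5:**
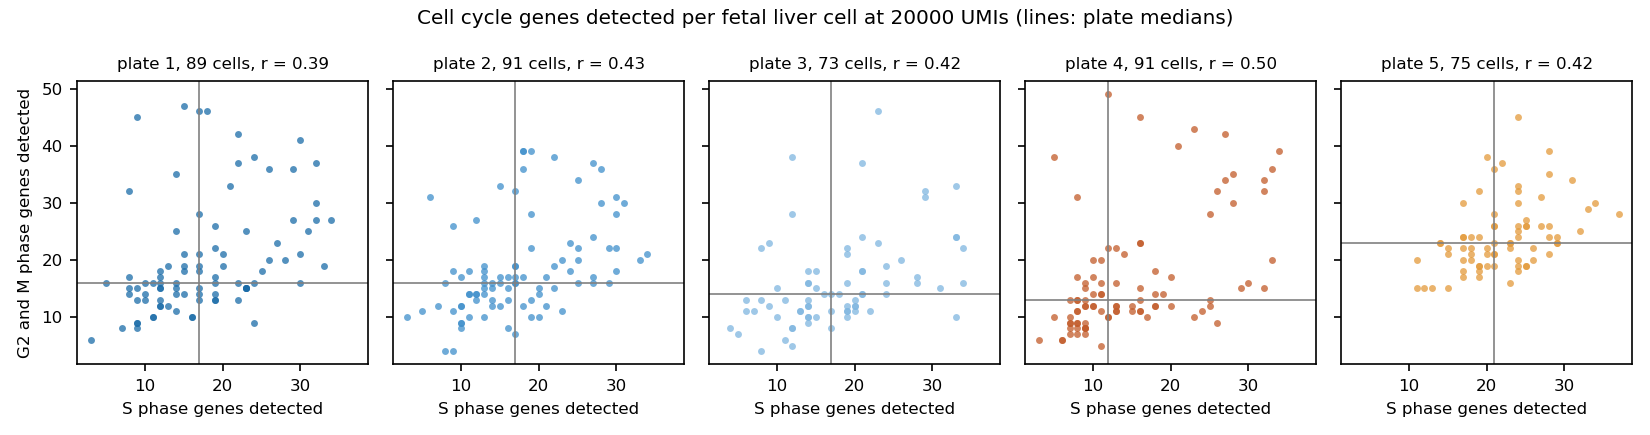
S phase against G2 and M phase genes detected in each fetal liver cell at 20000 UMIs, by plate (points, cells; grey lines, plate medians). Most cells of plates 1 to 4 lie at the lower left and a tail reaches 34 S phase and 39 to 49 G2 and M phase genes. The cells of plate 5 start higher, at 11 and 15, and this plate also had the most detected genes of any kind per cell.

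Some genes of the stem cell, marker and G1 lists varied with the number of cycle genes in thinned cells. The values are partial correlations, with the number of detected genes per cell held constant. Mycn had -0.34 to -0.18 on the 5 plates, the G1 cyclin Ccnd2 -0.27 to -0.18 and Meis1, a homeobox factor of stem cells, -0.26 to -0.12. Hlf was negative on every plate but weak (-0.10 to -0.04), and Ltb had -0.35 to -0.23 on plates 1 to 4 and 0.01 on plate 5. In the other direction stood the kinases Cdk4 (0.07 to 0.35) and Cdk2 (0.10 to 0.31). From the list of DNA methylation genes, Dnmt1, the maintenance methyltransferase, had 0.27 to 0.45 and is not among the counted genes. Kit, Cd34, Car2 and Flt3 had values of both signs. Of 5 interferon-induced genes 3 or more were found together in 9 of the 454 cells, on 4 plates.

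Against bone marrow, plate values of 3 measures were higher. Detected genes per thinned cell had a plate median of 3096 ± 334 in fetal liver and 1920 ± 161 in bone marrow (SD, n = 5 plates each, exact two-sided permutation test, p = 0.00794, adjusted over the 3 measures 0.0119). Cells with a UMI of Mki67, the proliferation antigen, made up 21.0 ± 5.22% and 9.13 ± 4.69% (exact permutation p = 0.0159, adjusted 0.0159). S, G2 and M phase genes per cell were 34.2 ± 6.72 and 13.6 ± 3.29 (exact permutation p = 0.00794, adjusted 0.0119). Without thinning the plate values were 3387 to 4497 against 2224 to 3317 genes, 26.8% to 42.7% against 6.32% to 18.8% of cells with Mki67, and 41 to 54 against 15 to 26 cycle genes. UMIs per detected gene also differed between plates (medians of 2 to 7 in fetal liver and 3 to 18 in bone marrow), and their part was not tested. The groups did not overlap in detected genes or cycle genes, and 0.00794 is the smallest p that 5 plates against 5 can give. Plates of a code are not independent, so this p covers the spread between plates only. Averaged by code the comparison is 2 against 2, where an exact permutation test cannot go below 0.333. The codes LL653E1 and LL653E6 had 2977 and 3274 genes and 33 and 36 cycle genes. LL731 and LL901 had 1854 and 2018.5 genes and 11.7 and 16.5 cycle genes. The 2 AGM plates had 3376 and 3364.5 genes, 37.9% and 32.6% of cells with Mki67, and 48 and 51 cycle genes.

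Summed by origin code, 748 of 15472 tested genes (4.83%) differed between fetal liver and AGM, 452 higher (2.92%) and 296 lower (1.91%) in fetal liver, by edgeR's quasi-likelihood test at an adjusted p under 0.05. Against bone marrow it was 732 genes (4.73%), 318 higher (2.06%) and 414 lower (2.68%). AGM has 1 library, whose spread was taken from the others. Both comparisons share the fetal liver libraries, so their values are given side by side and no overlap is read as a result. Without plate 4 the counts were 181 and 117, with plate 5 alone standing for LL653E6, and they were 426 and 402 without bone marrow plate 5.

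The 6 markers, chosen with these results known, had 3 called higher and 2 lower against AGM and 4 higher against bone marrow. Car2 was at 937 CPM in fetal liver, 203 in AGM and 1213 in bone marrow (log2 differences 2.20 ± 0.31 and -0.37 ± 0.22, adjusted p = 9e-05 and 0.44). Ltb was at 384, 51.7 and 249 CPM (2.89 ± 0.31 and 0.62 ± 0.22, adjusted p = 2.9e-06 and 0.122). H19 and Igf2bp1 stood between the tissues: H19 was at 146, 728 and 0.0993 CPM (-2.31 ± 0.29 and 9.77 ± 0.45) and Igf2bp1 at 51.9 and 326 CPM in fetal liver and AGM (-2.65 ± 0.32), with 2 UMIs in bone marrow (ratio 826, 95% counting interval 228 to 6829). Id3 was at 118 CPM in fetal liver and 136 in AGM (-0.21 ± 0.33, adjusted p = 0.835), and had 5 UMIs in bone marrow. Without plate 4 the call of Ltb against AGM was lost (adjusted p = 0.146).

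Of the genes called higher against both tissues, 33 had at least 30 CPM in fetal liver, and the 8 with the largest smaller rise included several of immune function. In the sentences that follow, values are CPM scaled by library and averaged over codes, and log2 differences carry an approximate error. Mzb1 was at 87.9 CPM in fetal liver, 1.35 in AGM and 2.07 in bone marrow (log2 differences 6.01 ± 1.17 and 5.91 ± 0.90, adjusted p = 0.00271 and 0.00028). Bank1, a B cell adaptor protein, was at 53.5, 1.35 and 4.98 CPM (5.30 ± 0.83 and 3.51 ± 0.57, adjusted p = 0.000346 and 0.000563). Pglyrp1, a peptidoglycan-binding protein of neutrophil granules, was at 323, 23.6 and 65.8 CPM, with plates of 295, 244, 293, 321 and 438 CPM (3.78 ± 0.35 and 2.30 ± 0.24). Both kept their call in all alternatives run. Ebi3, a subunit of the cytokines IL-27 and IL-35, was at 157, 12.9 and 28.9 CPM, with plates of 188, 130, 100.9, 146 and 205 CPM (3.60 ± 0.38 and 2.44 ± 0.27), and kept its call too. Ddx4, the germ cell RNA helicase known as Vasa, was at 60.6, 5.13 and 2.99 CPM (3.56 ± 0.76 and 4.52 ± 0.62) and was found in 53.5% of cells. Chil5, a chitinase-like protein, was at 49.6, 3.24 and 1.96 CPM (3.93 ± 0.80 and 4.85 ± 0.65). Pde4d, a cyclic AMP phosphodiesterase, was at 50.9, 7.91 and 8.73 CPM (2.69 ± 0.64 and 2.53 ± 0.49), with plates 1 and 2 at 94.2 and 75.8 CPM and the others at 31.0 and 32.6 CPM or below. Wfdc18, a whey acidic protein domain gene, had no UMI in AGM, so that fetal liver was at least 371-fold higher against a floor of 3 UMIs, and its log2 difference from bone marrow was 3.08 ± 0.55. Without plate 4 the calls against AGM were lost for Mzb1 (adjusted p = 0.151), Chil5 (0.0851), Ddx4 (0.11) and Pde4d (0.207), and those against bone marrow for Mzb1 (0.0588), Wfdc18 (0.0588) and Pde4d (0.0975). DESeq2 did not call Mzb1 in either comparison. Against AGM, Ddx4 was also lost without bone marrow plate 2 and in stricter wells, and Pde4d without bone marrow plates 4 or 5. Without code LL653E1 Pde4d was lost in both comparisons, and without LL653E6 Wfdc18 against bone marrow.

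Lower than in both tissues were 51 genes with at least 30 CPM elsewhere. Wwtr1, the TAZ coactivator of the Hippo pathway, and Cpa3, the mast cell carboxypeptidase, had no UMI in the 454 cells. They were at least 323-fold and 413-fold lower than in AGM and at least 54.1-fold and 11.1-fold lower than in bone marrow, against a floor of 3 UMIs over all fetal liver cells. Clec1a, a lectin receptor, had 1 UMI against 341 in AGM and 1306 in bone marrow, with ratios of 335 (95% counting interval 59.7 to 13260) and 1177 (211 to 46515). Npdc1, Sult1a1 and Mmp14 had 1 to 3 UMIs. Klf9, a Krüppel-like factor, was at 0.808 CPM against 12.7 in AGM and 51.1 in bone marrow (log2 differences -3.99 ± 0.58 and -6.00 ± 0.58). Nupr1, a stress-induced chromatin factor, was at 3.98, 72.9 and 48.0 CPM (-4.19 ± 0.57 and -3.58 ± 0.52). Without fetal liver plate 4 the call of Wwtr1 was lost against both tissues, and those of Cpa3 and Mmp14 against bone marrow. Against bone marrow Wwtr1 was also lost without fetal liver plate 3 or code LL731, and Cpa3 without bone marrow plates 2 or 5. DESeq2 did not call Wwtr1 in either comparison. With limma on plates and the origin code as a block, the calls of Nupr1, Cpa3 and Mmp14 against bone marrow were lost, and that of Mmp14 also with both tissues fitted alone.

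Stem cell identity genes split between the tissues. Against AGM 10 of 35 were higher and 1 was lower, where 2.92% and 1.91% of all genes were called. The median log2 difference was 0.10 beside 0.05 over all genes. Against bone marrow 2 were higher and 6 lower, where it was 2.06% and 2.68% of all genes, with a median of -0.12 beside 0.00. Ly6a was at 189 CPM in fetal liver, 51.7 in AGM and 417 in bone marrow (1.87 ± 0.28 and -1.14 ± 0.21, adjusted p = 0.00017 and 0.00184). Runx1, the master factor of blood emergence, was at 38.4, 144 and 38.2 CPM (-1.91 ± 0.34, adjusted p = 0.00136, and 0.00 ± 0.29). Angpt1, the Tek ligand, was at 110, 107 and 320 CPM (0.04 ± 0.28, and -1.54 ± 0.23, adjusted p = 0.000224). Without plate 4 the calls of Runx1 (adjusted p = 0.0992) against AGM and of Ly6a (0.359) and Angpt1 (0.116) against bone marrow were lost.

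The G1 regulators of the list of 20, of which 19 were tested, gave 3 higher and 2 lower against AGM, where 2.92% and 1.91% of all genes were called, and 2 higher and 3 lower against bone marrow, where it was 2.06% and 2.68%. The genes named from here on were picked after their values were seen. Ccnd1 was higher than in both (156 CPM, with 62.6 in AGM and 47.0 in bone marrow, log2 differences 1.32 ± 0.32 and 1.73 ± 0.25). Txnip, a redox protein of quiescent cells, was between them at 195, 82.4 and 468 CPM (1.24 ± 0.28 and -1.26 ± 0.22). Cdkn1c, the p57 inhibitor, was at 56.4, 402 and 27.6 CPM (-2.83 ± 0.27 and 1.03 ± 0.23), with 5.32 CPM on plate 5 and 30.1 to 80.7 CPM on the others. Of 17 genes of DNA methylation 2 were higher than in bone marrow, the de novo enzymes Dnmt3a (100.8 against 41.3 CPM, 1.28 ± 0.26) and Dnmt3b (148 against 37.1 CPM, 1.99 ± 0.25), with 122 and 207 CPM in AGM. Of 23 tested lymphoid genes 7 were higher and 0 lower against AGM (2.92% and 1.91% of all genes), and 3 and 1 against bone marrow (2.06% and 2.68%). This list holds the markers Ltb and Mzb1, and Bank1 and Cd79b, which are named singly. Its counts are therefore not separate from the calls of those genes. Cd79b, a subunit of the B cell receptor, was at 126, 33.3 and 65.1 CPM (1.93 ± 0.34 and 0.96 ± 0.25). Of 19 tested megakaryocyte genes 2 were higher and 5 lower against AGM, and 1 and 6 against bone marrow, beside the same shares of all genes. Apoe, the apolipoprotein, was at 39.6, 661 and 452 CPM (-4.06 ± 0.25 and -3.51 ± 0.23) and kept its calls in all alternatives run. Without plate 4 the calls of Ccnd1 (adjusted p = 0.389 and 0.0677), Txnip (0.344 and 0.0878), Dnmt3a (0.186), Dnmt3b (0.235) and Cd79b (0.0851 and 0.326) were lost, and that of Cdkn1c against bone marrow (0.97). Against bone marrow Cdkn1c was also lost without fetal liver plate 3, bone marrow plate 5 or LL653E6, and Cd79b without either of these plates, bone marrow plate 2 or either fetal liver code. Both were lost with the tissues fitted alone, and Cdkn1c with limma. Against AGM Ccnd1 was lost without either fetal liver code, and Txnip without LL653E6.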

How the data were processed

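Members and gene lists were chosen with earlier results of these data known. The deposited values are whole-number UMI counts per gene and well, made by the authors from scSTRT-seq reads; the submitters' processing notes name mm10, featureCounts, UMI-tools and SAMtools, with no version, annotation or strand setting (not given in the sources used here). Cells were kept as stated, and thinned to 20000 UMIs for the shares and gene numbers that the text gives as thinned. Plate CPM used the UMIs of all kept cells of a plate. Counts were summed by origin code (1 AGM, 2 fetal liver and 2 bone marrow libraries) and all 5 libraries were fitted together with edgeR 4.0.16 (TMM, quasi-likelihood test, Benjamini-Hochberg adjustment, call at 0.05); origin codes were compared with the 5 fetal liver plates as libraries. The error beside a log2 difference is the difference over the square root of F. Intervals and floors (3 UMIs) cover counting error only. Spread was read against a running median over genes of like mean, and pairs as Pearson or partial correlations of log2(scaled count + 1). Scripts were tested on simulated data.

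Named genes were the markers, members of the stem cell list, the 15 highest, the 20 largest spreads among those above the trend on every plate, the 10 smallest spreads, the 20 highest and 5 most negative pairs, the 8 largest rises and falls shared by both tissue comparisons at 30 CPM or more, the called genes of the origin codes, and up to 4 members of each other list. Predicted genes were counted and not named in ranked parts. The text says where others were chosen after their values were seen. Alternatives covered scaling, tool, filters, wells, left-out plates and origin codes. 1 member of the stem cell list is not reported here.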

Additional observations from a re-analysis of the deposited data

Results flagged for a closer look

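Among 23 measures with 5 plate values each, 5 had a plate far from the others by Dixon's test, and chance gives about 1 such group in 20. Plate 5 was lowest in Ltb at 102.2 CPM, with 378 to 440.5 CPM on the others. Its summed level of immediate early genes was the lowest at 355 CPM (594 to 659 CPM on the others), and its summed level of interferon response genes the highest at 8245 CPM (6828 to 7129 CPM). It also had 311 genes at least 4-fold below all other plates, against 0 to 4. Plate 3 was highest in the summed level of S phase genes, at 5133 CPM against 3619.5 to 3984 CPM. The measures of plate 5 share its libraries and are not independent of each other.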

How the results depend on the processing

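No paired analysis was possible because replicate numbers only count plates within a tissue and every tissue came from its own origin codes. Leaving out an origin code was an alternative chosen after seeing the data. Calls against AGM (748) were 2170 with limma on plates, 2218 with both tissues fitted alone, 479 without LL653E6, 2186 without LL731, 2164 without LL901, and 181 (without fetal liver plate 4) to 875 (without AGM plate 2) when single plates were left out. Calls against bone marrow (732) were 2125 with limma, 333 with both tissues fitted alone, 373 without LL653E1, 365 without LL653E6, 1718 without LL731, 1958 without LL901, and 117 (without fetal liver plate 4) to 741 by single plates, with 427 without fetal liver plate 3. Calls between the origin codes (5) were 39 with DESeq2, 46 with no filter on low counts and 0 to 769 by single plates. Genes found in at least 50% of the cells of every plate (1411) were 2168 without thinning, 862 at 2 or more UMIs and 1423 to 1588 by single plates. Genes of large spread (9) were 5 on thinned counts and 10 to 17 by single plates. Pairs above 0.3 (2236) were 1256 as partial correlations and 2386 to 3273 by single plates. No called value turned its direction in the alternatives run. Differences near 0 that were not called did, with ranges of -0.37 to 0.04 for Id3, -0.06 to 0.18 for Angpt1 (both against AGM), -0.67 to 0.02 for Car2 and -0.29 to 0.26 for Runx1 (both against bone marrow) on the log2 scale. The 3 plate measures against bone marrow kept their side of the threshold. The cause of these shifts was not tested. Sparse UMIs limit the shares and pairs of low genes.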
